A study of Oryctolagus cuniculus with 6 samples.

Results

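Healing of empty skull defects between day 5 and day 7 was followed in male New Zealand White rabbits, 4 months old, by comparing the array of unfilled control defects on day 7 with that on day 5. The 2 arrays belong to a set of 6, which covers unfilled control defects and defects grafted with HPD, a particulate of human dentin, on days 3, 5 and 7 with 1 array each. Per the labels, each of 24 rabbits received 4 round parietal defects 5 mm wide, those on the right were grafted, and RNA came from newly formed tissue. Empty and grafted defects thus lay in the same skulls, so the control tissue healed near a graft, and the labels do not say how many animals contributed to an array. With 1 array a side there was no replicate and no test, and every value below is a level or a difference between single arrays. A gene was included where a probe was well above background on both arrays, the scanner software's mark for a signal clearly over the blank level. This held for 19592 of the 23187 genes on the array, and for 35980 of its 43603 probes. Probes without a single gene symbol are counted here as genes under their array identifier, and 9246 of the 19592 had a symbol.

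An empty bone defect first fills with a blood clot, which neutrophils and macrophages enter and clear. Fibroblasts then lay down a provisional collagen-rich granulation tissue, some of them as contractile myofibroblasts, while vessels grow in. In flat skull bone, progenitors from the periosteum, dura and marrow become osteoblasts that secrete and mineralise bone matrix directly, without a cartilage stage. An empty defect serves as the reference for how far this course runs without a filler.

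Values are log2 signal minus the array's 75th percentile, called scaled log2 signal, and a difference is day 7 minus day 5 unless stated. The 75th percentile lay at an intensity of 403 on day 5 and 309 on day 7, with 84.4% and 85.3% of spots well above background and 0 saturated. Both arrays lay on 1 slide, at positions 1 and 3, so position and day cannot be told apart. The day 3 arrays lay on another slide and serve as context. Across genes, which are not independent replicates, the 2 arrays correlated at r = 0.983, with a median difference of 0.06, and 5% of genes below -0.52 and 5% above 0.80. Repeated spots of a probe gave differences with a median SD of 0.067 (37 probes with up to 5 spots, SD 0.022 to 0.625). Separate probes of a gene gave a median SD of 0.11 over 6275 genes. The 10 spike-in control probes measured on both arrays had a median difference of -0.17, from -0.34 to 0.15. These spreads cover the array and the probe, not animals. As bulk tissue was measured, fewer cells of a type and less RNA per cell cannot be told apart.

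Of the genes measured, 589 (3.01%) were at least 2-fold higher and 327 (1.67%) at least 2-fold lower on day 7. Among the 9246 with a symbol, 239 were at least 2-fold higher and 120 at least 2-fold lower. Shares of all genes given below include those without a symbol. The split depended on the scaling: 439 were higher and 382 lower with quantile normalization, 473 and 379 with median scaling, and 107 and 136 with normexp background correction. Genes past 2-fold were often dim. With genes split by brightness into 3 equal groups, 4.98% of the dimmest group were 2-fold higher and 1.70% lower, against 1.12% and 1.32% of the brightest. Only 176 of the higher genes and 108 of the lower ones had at least 2 measured probes, and every probe was past 2-fold the same way in 45 and 43 of these. GC content of the probes was alike, with a median of 43.3% in the higher, the lower and all measured probes. The results below therefore give the probes behind each gene.

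**Figure D1:**
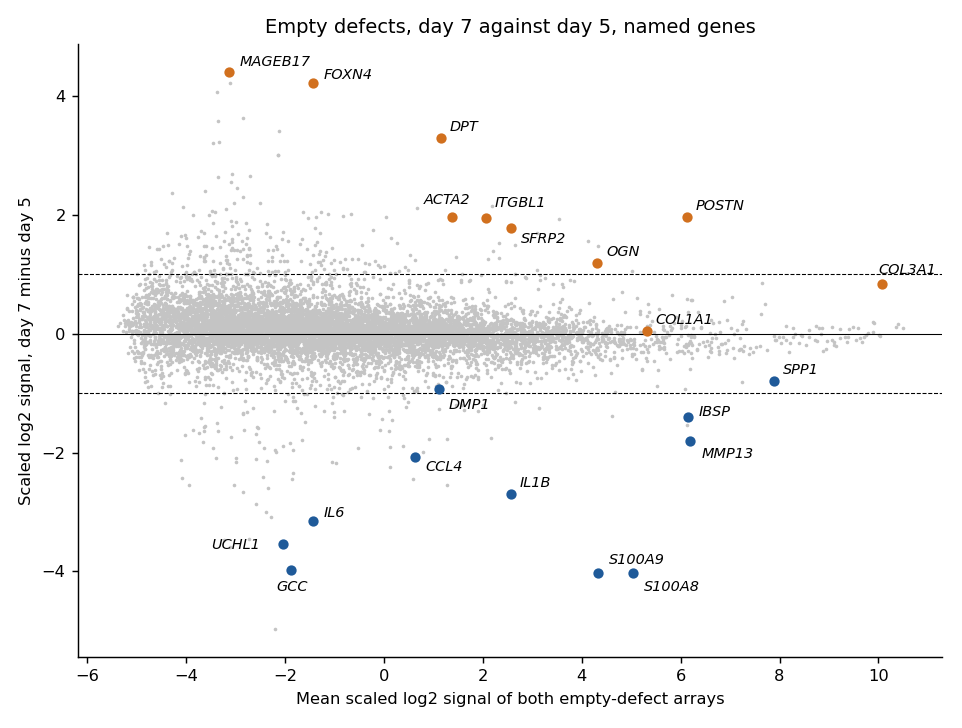
Each point is a named gene in empty defects, with the mean scaled log2 signal of both arrays on the x axis and day 7 minus day 5 on the y axis; dashed lines mark 2-fold. S100A8 and S100A9 lie near -4 at high signal, while most points beyond 2-fold above the line lie at low signal.

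Among named genes, inflammatory ones gave the largest differences at high signal, and they were lower on day 7. S100A8 and S100A9 encode the subunits of calprotectin, the most abundant cytosolic protein pair of neutrophils, and both were about 16-fold lower. IL1B, IL6, CCL4 and CCL5, which encode fever and recruitment signals of the acute response, were between 3.87-fold and 8.87-fold lower. The neutrophil list as a whole did not move this far: its median was -0.19, with 3 of 11 members at least 2-fold lower (1.67% of all genes) and 0 at least 2-fold higher (3.01% of all genes).

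S100A8 stood at 7.04 on day 5 and 3.02 on day 7, a difference of -4.02 (16.2-fold). All its 10 measured probes agreed, with differences of -4.07 to -3.88. In the same defects the level on day 3 was 9.31, so day 7 was the lowest of the 3 days. S100A9 stood at 6.35 and 2.31, a difference of -4.03 (16.3-fold). A second S100A9 probe, which lies on the opposite strand of the same segment, gave -1.12. In grafted defects S100A8 went from 8.67 to 4.91 and S100A9 from 7.83 to 3.67 between the same days. Every day 5 value of both genes lay above every day 7 value, in empty and grafted defects alike. Probe sequences of S100A8 and IL6 are shown because several overlapping or neighbouring probes returned the same difference; each is the first 30 of 60 bases, from the array's own columns, with the probe's position on oryCun2.
S100A8, chr13:39004946-39005005, plus strand: ggatatcaacagtgatggggccatcaactt
S100A8, chr13:39004949-39005008, plus strand: tatcaacagtgatggggccatcaacttcca
IL6, chr10:7776272-7776331, plus strand: gccaaatcttttcttggaatgtgtaggctt
IL6, chr10:7776269-7776328, plus strand: agagccaaatcttttcttggaatgtgtagg

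Between the probes of this pair on the chromosome, 3 unnamed probes at 1 site gave the lowest differences among unnamed probes. The transcript ENSOCUT00000026905 stood at 7.93 on day 5 and 3.56 on day 7, a difference of -4.37 (20.7-fold). Its probe at chr13:39018791-39018847 lies 13786 bases after the S100A8 probe and 13524 bases before the S100A9 probe. Probes A_04_P013462 and A_04_P013461 overlap it and gave -4.38 and -4.36. In RefSeq of another assembly, mOryCun1.1, the protein-coding gene between S100A8 and S100A9 is LOC100008703, and whether the probes belong to it was not tested.

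Among other neutrophil genes, FPR1, the receptor for bacterial formyl peptides, went from -1.57 to -2.88, a difference of -1.31 (-0.79 with normexp). CXCR1 and CXCR2, receptors for chemokines that draw neutrophils, differed by -0.16 and -0.23, and the collagenase gene MMP8 by 0.004 on its brightest probe and 1.03 on its other probe. CAMP, a cathelicidin of granules, and MPO, myeloperoxidase, were higher on day 7, by 0.92 and 0.73. These granule genes are made in immature cells of the marrow. In empty defects they had been far higher on day 3, at 7.82 for CAMP and 3.74 for MPO, against -0.55 and -1.97 on day 5. All 11 measured neutrophil genes had their highest control level on day 3.

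The list of inflammatory cytokines and chemokines had a median of -0.40, with 14 of 21 members lower, while 59% of all genes were higher. At least 2-fold lower were 5 of them, against a background of 1.67%, and 3 were at least 2-fold higher, against 3.01%. IL6, an inducer of the acute-phase response, stood at 0.13 on day 5 and -3.01 on day 7, a difference of -3.15 (8.87-fold). Its 5 probes gave -3.25 to -3.11, and normexp gave -2.08 at an intensity of 38.2 on day 7. IL1B, the main secreted interleukin-1, stood at 3.91 and 1.22, a difference of -2.70 (6.48-fold), with probes between -2.70 and -2.59. On day 3, on another slide, IL1B had stood at 4.08, near its level on day 5, and IL6 at 1.004, above its level on day 5.

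The chemokine gene CCL4 was 4.20-fold lower (1.65 against -0.42, 5 probes), and CCL5 was 3.87-fold lower (-1.23 against -3.18; a difference of -1.95, and -1.007 with normexp). PTGS2, the inducible prostaglandin synthase, was 3.43-fold lower (2.16 against 0.38), and its 3 probes ranged from -1.88 to -0.77. CXCL8, the classic neutrophil attractant, gave -0.49 on its brightest probe, but its 7 probes ran from -1.99 to -0.49. TNF differed by -0.26 and the monocyte attractant CCL2 by 0.05. Not all of the list was lower. IL18, released by inflammasome activity, went from -0.79 to 0.43, a difference of 1.23, with all 7 probes between 1.12 and 1.23. IL1A was 1.21 higher and IL19 1.07 higher, and normexp put these at 0.80 and 0.04.

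Lymphocyte genes had a median of 0.05, with CD28 at 0.83 and CD3G at -0.67, both under 2-fold. Mast cell genes lay at 0.08 and interferon-response genes at -0.07, where IFIT3 gave -0.94. The 4 genes of eosinophils and immature granulocytes lay between -0.20 and 0.40.

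Macrophage and monocyte genes lay on both sides of 0. The list median was 0.36 and 9 of 14 members were higher, near the 59% of all genes. At least 2-fold lower were 2 members and higher 0, against 1.67% and 3.01% of all genes. CHIT1, a chitinase of activated macrophages, gave -1.22, and MARCO, a scavenger receptor, gave -1.14 (-0.83 and -0.69 with normexp). Genes of resident or antigen-presenting macrophages lay above 0: CD74 at 0.69, APOE at 0.66, CSF1R at 0.60, C1QA and LYVE1 at 0.54 each. CD68, carried by most macrophages, differed by -0.02, from 1.54 to 1.52. MS4A6A, a membrane protein of monocytes, was among the 15 lowest named genes, at 1.82 and -0.63.

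Matrix and contractile genes were the other side of the comparison. POSTN, a matricellular protein of wounds and periosteum, was 3.90-fold higher on day 7, and ACTA2, the smooth muscle actin that marks myofibroblasts and pericytes, 3.91-fold higher. All 12 measured contractile and pericyte genes and 16 of 18 granulation matrix genes were higher, against 59% of all genes measured. At least 2-fold higher were 3 in each list, against a background of 3.01%. DPT, which encodes dermatopontin, a small protein that binds collagen fibrils and decorin, was 9.80-fold higher.

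DPT stood at -0.50 on day 5 and 2.79 on day 7, a difference of 3.29. Its 5 overlapping probes gave 3.22 to 3.40, and normexp gave 2.97. The control level on day 3, -0.61, was near that of day 5. In grafted defects it went the other way, from 0.86 to -0.07. Only the day 7 array of empty defects stood high for DPT, at least 2-fold above every other array. POSTN stood at 5.14 and 7.10, and its 4 probes gave differences of 1.96 to 2.39. It had been at 2.49 on day 3. Probe sequences of both are shown because every one of their probes was past 2-fold; POSTN has no position in the files.
DPT, chr13:24322367-24322426, plus strand: cgtcaatggaagttcataatgtgccggatg
POSTN: taaaagactgcttcagggagacacaccggt

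COL14A1, a collagen that binds the fibril surface, went from -4.49 to -2.80, a difference of 1.69 that normexp put at 0.37. COL6A1, a chain of microfibrillar collagen, went from 1.56 to 3.09, and FBN1, the fibrillin of elastic microfibrils, from 2.67 to 3.65. FAP, a protease of activated fibroblasts, was 1.93-fold higher. The main fibrillar collagen of granulation tissue, COL3A1, went from 9.66 to 10.48, a difference of 0.83 (1.77-fold), with probes at 0.504 to 0.997. COL1A1 and COL1A2, the chains of type I collagen, differed by 0.04 and 0.19. Type III and type I collagen thus stood apart on these arrays, and the difference between them was not tested. CTHRC1, which marks collagen-secreting fibroblasts, and the cross-linking enzyme gene LOX were the 2 members lower, at -0.28 and -0.08.

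Small leucine-rich proteoglycans coat collagen fibrils and set their width. OGN, osteoglycin, went from 3.73 to 4.91, a difference of 1.18 with 5 probes between 0.99 and 1.18. ECM2 was 1.08 higher (0.99 with median scaling), LUM, lumican, 0.85 and DCN, decorin, 0.64. OMD, osteomodulin, which osteoblasts make, differed by -0.48 and PODN by -0.55. The list median was 0.16, with 6 of 11 higher and 5 lower, so members lay on both sides of 0. Genes of tendon and connective tissue progenitors had a median of 0.63, with 7 of 8 higher, against 59% of all genes. ITGBL1, an integrin-like secreted protein, went from 1.08 to 3.03 with 4 probes between 1.71 and 1.95. TNMD, tenomodulin of tendon, went from -1.56 to -0.65.

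ACTA2 stood at 0.40 on day 5 and 2.37 on day 7, a difference of 1.97 from 1 probe. TAGLN, a companion of contractile actin, went from 1.91 to 3.40 (probes 1.49 and 1.57). RGS5, a pericyte gene, went from -3.05 to -1.65, with 5 probes between 1.41 and 1.64 (0.61 with normexp), and PDGFRB, the pericyte growth factor receptor, from -3.90 to -2.94. MYL9 and TPM2, light chain and tropomyosin of contractile fibres, were both 0.61 higher. Actin genes are near-identical in sequence and probes can share signal. The probes of ACTC1, cardiac actin, gave 2.14 and 0.08, and the cause of this gap was not tested.

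Skeletal muscle genes were higher too, with 17 of 20 above 0, a median of 0.46 (0.13 with normexp) and 3 at least 2-fold higher, against 59% and 3.01% of all genes. MYH3, the embryonic myosin heavy chain, went from -4.05 to -2.15, CKM, muscle creatine kinase, from -3.57 to -1.96, and MYBPC1 from -3.72 to -2.32. Normexp put these differences at 0.70, 0.61 and 0.50, all under 2-fold. ACTN3 gave -0.64. DES belongs to both lists, at 0.58. The part of muscle tissue in the contractile differences was not tested. Erythroid genes, in contrast, had a median of -0.64, with 7 of 10 lower, while 59% of all genes were higher. RHAG, of the red cell membrane, gave -1.24 (-0.43 with normexp), while the globin gene HBA stood at 10.44 and 10.54 on its brightest probe. The 9 HBA probes gave differences on both sides of 0, from -0.48 to 0.86. The part of blood in the lower neutrophil genes was not tested.

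**Figure D2:**
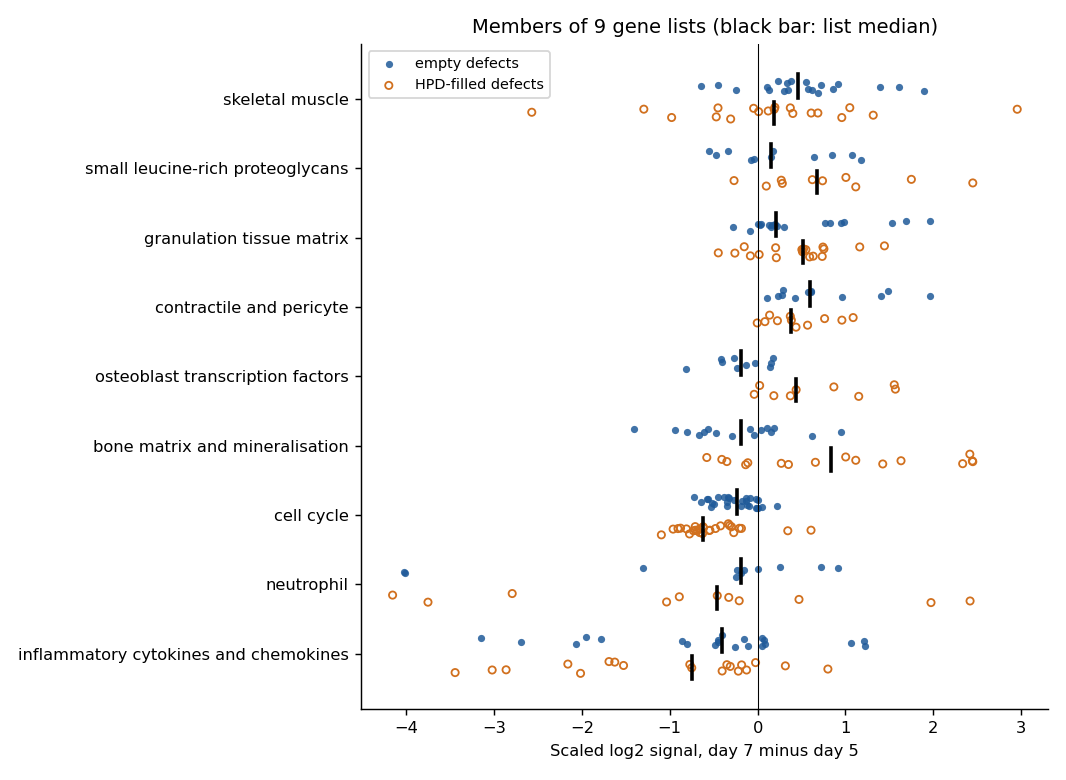
Points are members of 9 gene lists, with day 7 minus day 5 in empty defects (filled) and in HPD-grafted defects (open); black bars are list medians and the vertical scatter is only for legibility. Contractile members lie all above 0 in empty defects, and bone matrix members lie mostly below 0 in empty and above 0 in grafted defects.

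Bone genes were slightly lower on day 7 in empty defects, with list medians near the -0.17 of the spike-in probes. The bone matrix and mineralisation list had a median of -0.19, with 10 of 16 lower. Osteoblast transcription factors had a median of -0.18, with 7 of 10 lower, while 59% of all genes were higher. IBSP, bone sialoprotein, which seeds mineral crystals, was the only member of both lists past 2-fold, against backgrounds of 3.01% and 1.67%. It stood at 6.85 on day 5 and 5.44 on day 7, a difference of -1.41 (2.66-fold), with probes at -1.41 and -1.32. On day 3 it had been at 3.60. The IBSP probe is shown as that of the bone gene furthest from 0.
IBSP, chr15:62360093-62360152, minus strand: atatgacgatggttacgaaatctatgaaaa

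DMP1, a mineralisation protein of young osteocytes, went from 1.58 to 0.65, a difference of -0.94 with 5 probes between -0.94 and -0.77. SPP1, osteopontin, made by osteoblasts and by macrophages, went from 8.28 to 7.48. PTH1R, the parathyroid hormone receptor, differed by -0.66, and the collagen chaperone gene SERPINH1 by -0.61. PHEX, a mineralisation regulator, gave -0.29. PHOSPHO1 and MEPE, both near background at -4.81 and -3.76 on day 5, were higher by 0.94 and 0.62, and normexp put these at 0.11 and 0.12.

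Of the transcription factors, RUNX2, the master regulator of the osteoblast lineage, went from -0.76 to -1.17. Its 6 probes ran from -0.41 to -0.07. DLX5 gave a difference of -0.27, DLX6 gave -0.82, and SP7, which acts after RUNX2, was higher by 0.18. These are small differences, of which DLX6 lay past 1.5-fold. SPARC, BGLAP and ALPL were not named on the array and are not analysed here.

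In grafted defects the same genes gave other differences between the same days, on other arrays of the slide. There the medians were 0.83 for bone matrix, with 8 of 16 at least 2-fold higher (background 3.11%), and 0.44 for the transcription factors. IBSP went from 4.76 to 6.39, DMP1 from -0.68 to 1.65, OMD from 1.33 to 3.78 and COL1A1 from 4.03 to 6.48. On day 7 IBSP, DMP1, OMD and COL1A1 were thus higher in grafted than in empty defects, while on day 5 they had been lower. Taking the day of the highest level, 9 of 16 bone matrix genes peaked on day 5 in empty defects and 4 on day 7, against 3 and 11 in grafted defects. Among all genes measured, 23.4% were highest on day 5 and 38.5% on day 7 in empty defects, and 24.5% and 34.5% in grafted ones.

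**Figure D3:**
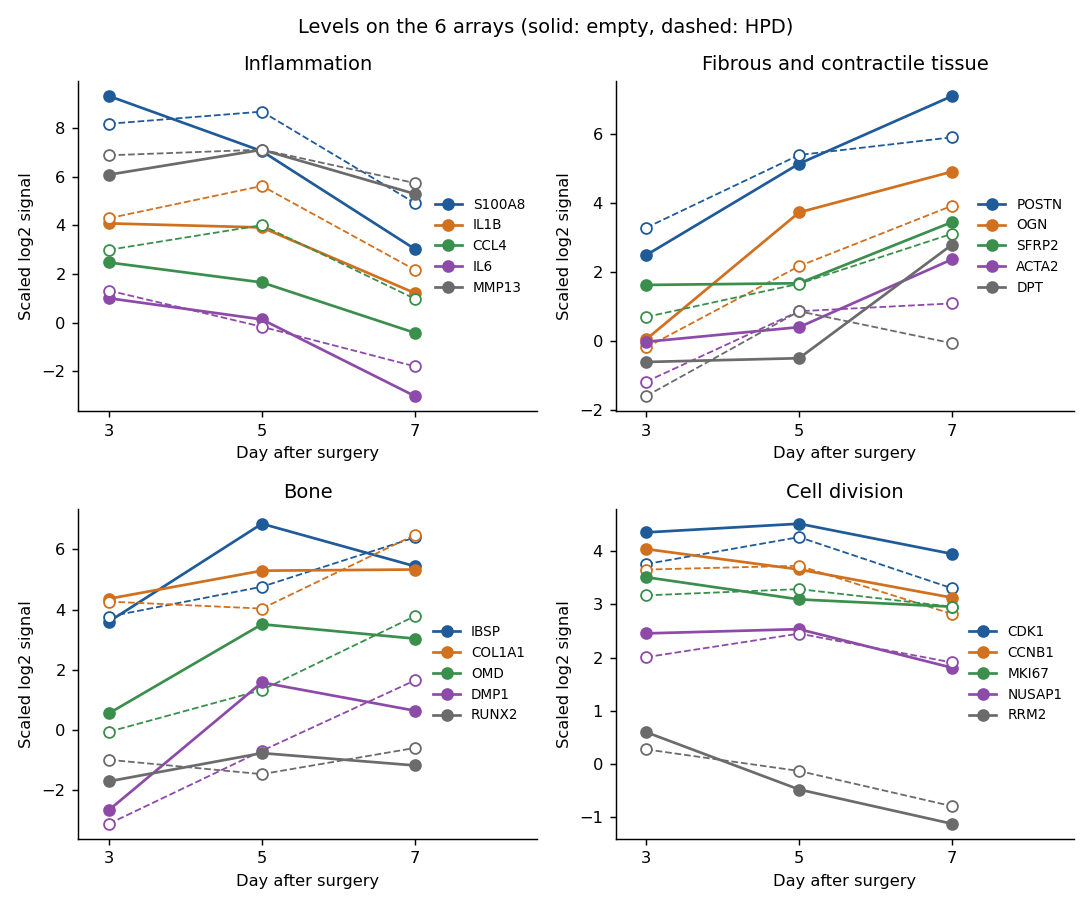
Scaled log2 signal on the 6 arrays by day after surgery, for 5 genes each of 4 groups; solid lines are empty defects and dashed lines HPD-grafted ones, 1 array per point, with day 3 on another slide. In empty defects IBSP and DMP1 are highest on day 5, POSTN and ACTA2 on day 7, and S100A8 is lowest on day 7.

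Cartilage genes had a median of -0.04 and 5 of 13 were higher, against 59% of all genes. COL10A1, the collagen of hypertrophic cartilage, went from -4.25 to -3.02 near background (1.22, and 0.26 with normexp), and its 5 probes ran from 1.22 to 2.07. COL2A1, the main cartilage collagen, differed by 0.15 on its brightest probe, and its 6 probes ran from 0.15 to 1.06. SOX9, the cartilage regulator, differed by -0.46, from -3.88 to -4.34. Osteocyte genes had a median of -0.22, where SOST, the osteocyte inhibitor of bone formation, gave 0.46 at a level near background. Averaging the probes of each gene turned that median to 0.11.

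Osteoclast genes, which belong to the bone-resorbing cells, lay slightly above 0, at a median of 0.24 with 7 of 10 higher and 0 past 2-fold in either direction, against 59% of all genes higher and an overall median of 0.06. ITGB3, the vitronectin receptor chain, gave 0.70, and CTSK, the collagen-cutting cathepsin of osteoclasts, went from 5.98 to 6.34. ACP5, tartrate-resistant phosphatase, went from 5.01 to 5.34 and MMP9 from 6.57 to 6.74. TNFSF11, the osteoclast-inducing ligand, gave 0.40 at -4.41 on day 5, and its decoy TNFRSF11B -0.22.

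Growth factor pathways had medians near 0 with a few members far from it. In Wnt signalling, with a median of -0.12, 2 of 23 members were at least 2-fold higher and 2 at least 2-fold lower, against 3.01% and 1.67% of all genes. SFRP2, a secreted modulator of Wnt ligands, went from 1.67 to 3.45, a difference of 1.77, and its 6 probes gave 1.36 to 1.77. The ligand gene WNT2 was 1.28 higher (0.29 with normexp). RSPO3, an enhancer of Wnt signals, went from 0.36 to -0.99, and DKK1, a secreted inhibitor, from 0.75 to -0.56. CTNNB1, which encodes beta-catenin, differed by -0.56 and the ligand gene WNT5A by -0.17.

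TGF-beta and BMP genes had a median of 0.01, with 0 of 25 past 2-fold, against 3.01% of all genes higher and 1.67% lower. The bone-inducing ligand genes BMP4 and BMP2 went from 0.52 to -0.24 and from 1.69 to 1.02, and 1 of the 8 BMP2 probes gave 0.01. A further ligand gene, BMP7, differed by -0.01. The activin subunit gene INHBA gave -0.62 with 5 probes between -0.64 and -0.47, and TGFB1 gave -0.09.

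Among angiogenic factors, 10 of 14 were higher with a median of 0.30, against 59% of all genes higher. PDGFB, which recruits pericytes, went from -3.14 to -2.13 (1.01, and 0.38 with normexp), and IGF1 from 1.128 to 2.0015 with 5 probes between 0.81 and 0.89. Endothelial genes had a median of 0.05. TEK, the angiopoietin receptor, gave -1.16 (-0.84 with normexp), VWF, the endothelial clotting factor, 0.83, ESM1, a gene of sprouting tip cells, -0.76, and PECAM1 0.08.

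Proteases and their inhibitors had a median of 0.04. MMP13, the collagenase of bone and granulation tissue, went from 7.10 to 5.29, a difference of -1.81 (3.51-fold) with probes at -1.83 to -1.46. MMP7, matrilysin, went from -2.53 to -4.17 (-1.63, and -0.56 with normexp). PLAU, the urokinase gene, was 0.88 higher and the inhibitor TIMP1 gave -0.38. Grafted defects gave -1.37 for MMP13.

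Cell cycle genes were lower by small amounts in nearly all cases. Of 28 measured, 24 were lower, with a median of -0.23 and 0 past 2-fold. Over all genes 59% were higher, with 3.01% at least 2-fold higher and 1.67% at least 2-fold lower. CDK1, the mitotic kinase, went from 4.52 to 3.95, CCNB1, its cyclin, from 3.66 to 3.13, and NUSAP1, of the spindle, from 2.53 to 1.81. RRM2 and MCM7, of DNA replication, gave -0.64 and -0.52. MKI67, the common proliferation marker, gave -0.14 and PLK1 0.22. Genes of the secretory pathway and unfolded protein response were 16 of 17 lower, at a median of -0.21, with the chaperone gene HSPA5 at -0.50. Respiratory chain genes were 19 of 20 lower at -0.14 and ribosomal protein genes 14 of 17 lower at -0.08. The spike-in probes had a median of -0.17. The 11 reference genes lay at a median of -0.07, with GAPDH at 0.02, ACTB at 0.11 and TFRC at -0.99.

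Hypoxia and glycolysis genes had a median of -0.04, with HK2 at 1.07 (0.23 with normexp) and PGK1 at -0.57. Adipocyte genes had a median of 0.27, with ADIPOQ at 0.96. Of the tissues next to a skull defect, the brain list had a median of 0.29 over 7 measured genes (0.07 with normexp), with NEFL at 0.76, while its members SYT1 and AQP4 were not well above background on both arrays. Epidermis genes lay at -0.02 over 6 genes, and the keratin genes KRT1 and KRT5 were not well above background on both arrays. Platelet genes lay at -0.08 over 3 genes. Peripheral nerve genes had a median of 0.31 over 10 genes (0.04 with normexp). At least 2-fold higher were 2 and lower 1, against 3.01% and 1.67% of all genes. UCHL1 gave -3.53 on its brightest probe, and CNTN1 gave 2.68 (0.96 with normexp). SOX10 of Schwann cells gave 1.47 (0.36 with normexp) and S100B 0.37.

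**Figure D4:**
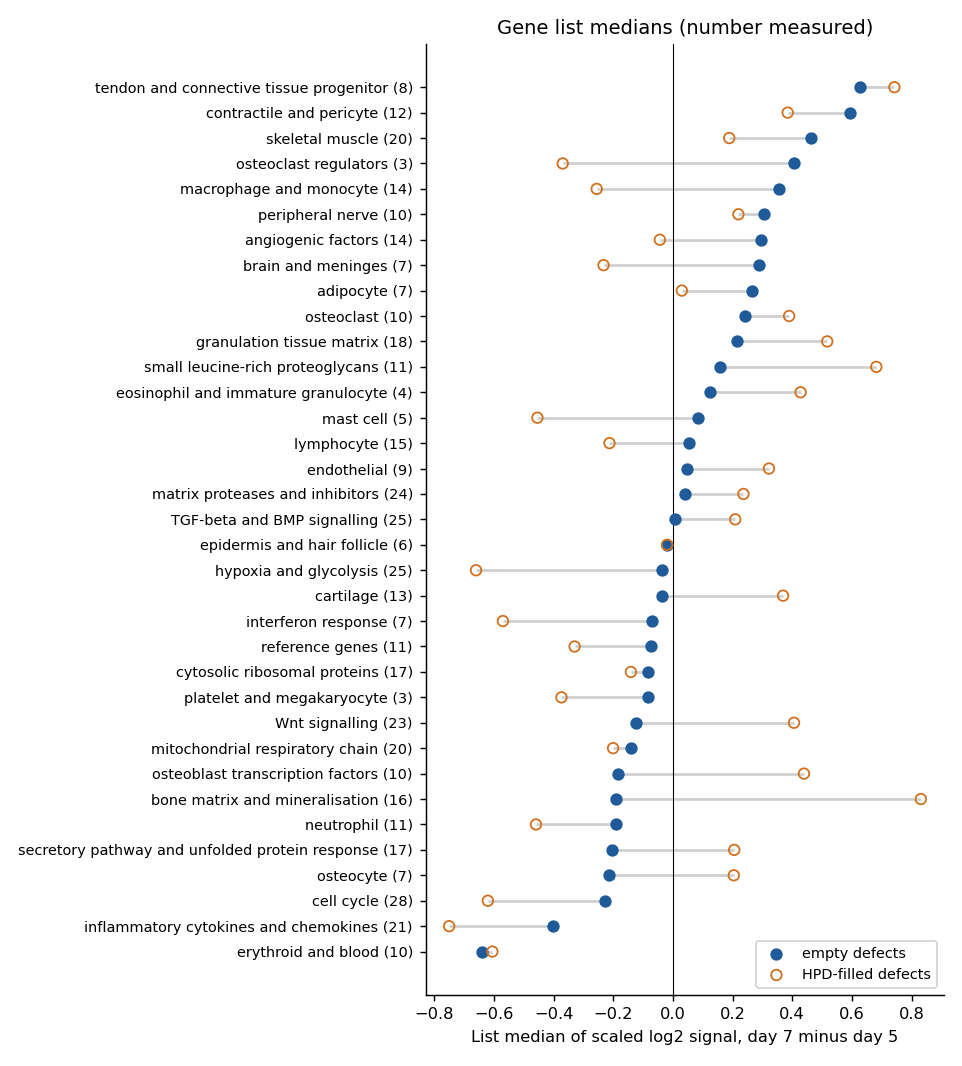
Each row is a gene list with the number of members measured in empty defects; the filled point is its median of day 7 minus day 5 in empty defects and the open point that in HPD-grafted defects. Tendon and contractile lists lie highest in empty defects (0.63 and 0.59), and erythroid and cytokine lists lowest (-0.64 and -0.40).

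The extremes among named genes whose probes and settings agreed in sign included S100A9, S100A8, IL6, IL1B, MS4A6A and DPT, and many of the others rested on 1 probe. Among the 15 highest, 2 had at least 2 measured probes, and 13 were at least 2-fold brighter on the day 7 array of empty defects than on every other array. MAGEB17, GRXCR2, ZBTB24, UNG and N4BP2L1 had differences of 4.40, 4.22, 4.06, 3.63 and 3.41, all below -3.8 on day 5. Normexp put them at 1.73, 1.52, 1.38, 1.51 and 1.79. All of these but MAGEB17, which had a second probe at 0.38, rested on 1 probe. CXXC4, ZBED2, CNTN1, CPB2, HIGD1B, SLC17A4 and PTPN5 followed, between 2.37 and 3.22, with 1 probe each. Normexp put these at 1.13, 1.009, 0.96, 0.65, 0.93, 0.63 and 0.49, which is under 2-fold for the last 5. APOD, a lipid carrier, stood at -3.66 and -0.65 (3.004, and 1.57 with normexp), and in grafted defects at -2.78 and -1.70.

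FOXN4, a transcription factor of retinal development, differed by 4.22 from 1 probe (2.56 with normexp), and this was not a single-array value. It stood at 0.27, -3.56 and 0.67 on days 3, 5 and 7 in empty defects, and at 0.25, -3.62 and 0.996 in grafted ones. Both day 5 arrays were low and the other 4 high. Only 14 genes were at least 2-fold lower on day 5 than on days 3 and 7 in both treatments.

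Among the 15 lowest, 8 had at least 2 probes, and 7 stood at least 2-fold above every other array on the day 5 array of empty defects. S100A9, S100A8, IL6, IL1B and MS4A6A belong to the other 8. RBP4, the retinol carrier, stood at 2.55 and -0.0035, and SLC31A1, the copper importer, at -1.24 and -3.66 with 5 probes between -2.49 and -2.24. PRKAR1B, LRRC3B, RBM28, CNGA4, TADA1 and OLFR651_1 gave -3.59, -3.47, -3.09, -2.86, -2.59 and -2.42 from 1 probe each. Normexp put these at -1.40, -1.41, -1.62, -1.37, -1.34 and -0.69, and SLC31A1 at -1.14.

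UCHL1 and GCC, the guanylyl cyclase of intestine, had probes that disagreed in size, and normexp put their differences at -1.997 and -2.28. UCHL1, a ubiquitin hydrolase of neurons, gave -3.53 on its brightest probe, which stood at -0.27 on day 5 and between -4.12 and -3.13 on the other 5 arrays. A probe shifted by 1 base stood at -3.63 and -3.76, a difference of -0.14. MAGEB17 gave 4.40 on one probe and 0.38 on another. GCC gave -3.97 on one probe and -0.81 to -0.30 on its other 3. The cause of such single-probe values was not tested. The UCHL1 and MAGEB17 pairs are shown because near-identical or neighbouring probes returned unlike values.
UCHL1, chr2:30404426-30405434, plus strand, difference -3.53: caaagtgaacttccatttcatcctgtttaa
UCHL1, chr2:30404427-30405435, plus strand, difference -0.14: aaagtgaacttccatttcatcctgtttaac
MAGEB17, chrX:2079449-2079508, plus strand, difference 4.40: tatgagttgctgtggggtgcaaaggcccac
MAGEB17, chrX:2079489-2079548, plus strand, difference 0.38: acaagatgaaagtcttagagtttttggcca

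**Figure D5:**
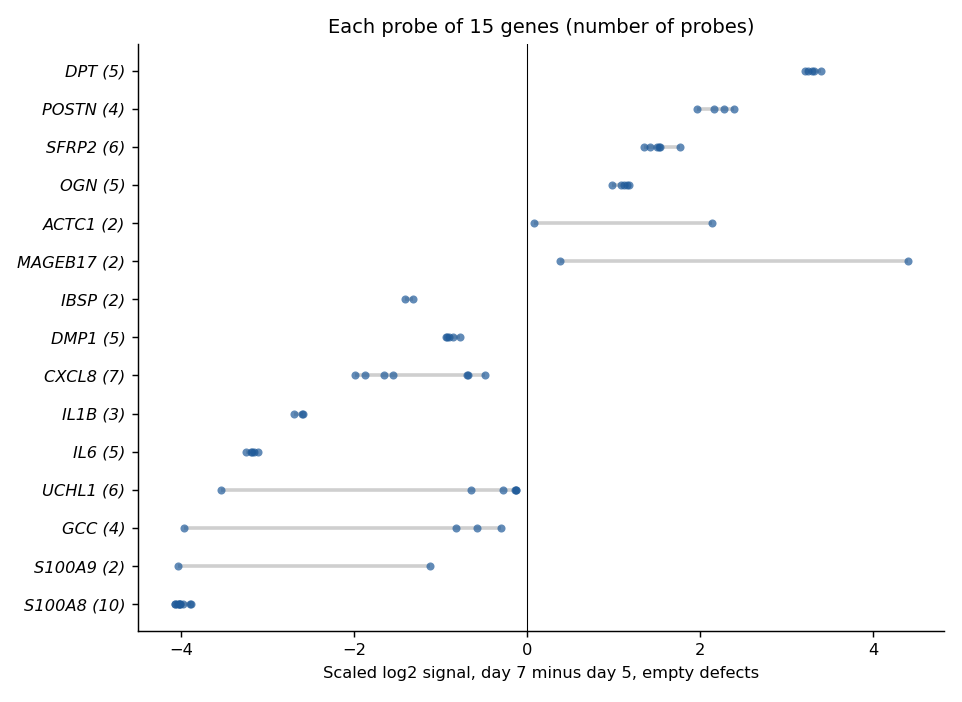
Each point is a probe well above background on both empty-defect arrays, with day 7 minus day 5 on the x axis, for 15 genes; the number of probes is beside the name. Probes of DPT, IL6, IL1B and S100A8 lie within 0.2 of each other, while those of UCHL1, GCC and MAGEB17 spread over more than 3 units.

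A further 11 named genes lay beyond the last of these ranks but were passed over because their probes or the settings disagreed in sign. MINAR1 had the widest gap of them, 0.28 against -4.69 on 1 of its 3 probes (-4.97, and -2.68 with normexp). Genes well above background on only 1 of the 2 arrays have a bound in place of a fold. There were 569 on day 7 only, 152 of them at least 2-fold higher, and 451 on day 5 only, 63 of them at least 2-fold lower. The largest bounds were at least 22.6-fold higher for KCNC2, 17.8-fold for GP5, 17.6-fold for SLC6A11, 16.9-fold for HOXD3 and 15.7-fold for GALNTL6. In the other direction they were at least 30.7-fold lower for CCER1, 18.8-fold for RUNDC3A, 14.2-fold for CATSPERE, 11.3-fold for QRFPR and 7.397-fold for PPP1R1C. Among unnamed probes ENSOCUT00000010651, ENSOCUT00000014288 and A_04_P064989 were highest, at 4.57, 4.23 and 4.70.

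Grafted defects, measured on the same days with no array in common, give a side by side view. There 564 of 18117 genes (3.11%) were at least 2-fold higher on day 7 and 743 (4.1%) at least 2-fold lower. Of 271 genes at least 2-fold lower in empty defects and measured in grafted ones, 201 (74.2%) were also lower there. At least 2-fold lower in both were 143, which is 52.8% of these and 19.2% of the genes 2-fold lower in grafted defects. Of 501 genes at least 2-fold higher in empty defects, 311 (62.1%) were higher in grafted ones. At least 2-fold higher in both were 65, or 13% and 11.5% of the respective lists. Over all genes measured in both, 62.9% had the same sign. The share for the lower genes lay above that value and the share for the higher genes near it.

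By gene, S100A8, IL1B, CCL4 and CCL5 were lower in grafted defects as well, with differences of -3.75, -3.44, -3.02 and -2.86. IL6 gave -1.63 there and MMP13 -1.37. SFRP2, OGN and ITGBL1 were higher in both, at 1.45, 1.75 and 2.63 in grafted defects. POSTN and ACTA2 differed there by 0.51 and 0.23, against 1.96 and 1.97 in empty defects. Their lists were not lower as a whole in grafted defects. Granulation matrix genes had a median of 0.52 there, with 14 of 18 higher, against 0.21 in empty defects. Contractile and pericyte genes had a median of 0.38, with 10 of 11 higher, against 0.59. The median over all genes measured in grafted defects was 0.07. ACTA2 stood at -0.03, 0.40 and 2.37 on days 3, 5 and 7 in empty defects and at -1.18, 0.86 and 1.09 in grafted ones, so that empty defects were higher on days 3 and 7 and lower on day 5.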

How the data were processed

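Spot intensity was deposited in 1 colour (Cy3), already background-subtracted and detrended by Agilent Feature Extraction 10.5.1.1 per the file headers, on a rabbit design with oryCun2 positions, and no step between arrays is recorded. Marks for background and outliers are other columns of the deposited files, coded 0 or 1. Spots of a probe were averaged after log2 and scaling each array to its 75th percentile (control spots left out); 35 probes with an outlier mark were left out. A gene is its brightest measured probe, under its symbol or, where there was no single symbol, under the array's identifier. Of 43603 probes, 23122 had 1 symbol, 92 several and 20389 none, through the array's columns, RefSeq mOryCun1.1 (names only) and 4 older names updated by hand. The 35 lists (694 genes) and the rules were chosen with earlier results of these data known. Named genes are the 15 highest and 15 lowest whose probes, quantile and normexp values agree in sign, up to 6 members a list, a fixed set of 33 (SPARC unmeasured), 5 bounds each way and 3 unnamed probes each way; others were chosen after their values were seen. Alternatives were quantile normalization, median scaling, normexp (offset 50, limma 3.58.1, R 4.3.3), probe means, other filters on dim probes, and 1.5-fold and 3-fold limits; added after seeing the data were genes with at least 2 probes. Tables were made in pandas 2.3.3 under Python 3.11.15, and counting was tested on simulated data. The number of arrays limits the precision.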

Additional observations from a re-analysis of the deposited data

Results flagged for a closer look

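Some lists and genes had opposite signs in empty and grafted defects between days 5 and 7, with 1 array a side, so that the difference was not tested. Medians of empty against grafted defects, where they lay at least 0.5 apart, were -0.18 against 0.44 for osteoblast transcription factors and -0.19 against 0.83 for bone matrix. They were -0.12 against 0.41 for Wnt signalling, 0.40 against -0.37 for the 3 osteoclast regulators measured (0.01 in empty defects with normexp and 0.21 with quantile normalization), 0.36 against -0.26 for macrophage genes, 0.08 against -0.45 for mast cell genes and 0.29 against -0.23 for brain genes. At least 2-fold in opposite directions were IBSP (-1.41 against 1.63), DKK1 (-1.31 against 1.27), MYH3 (1.90 against -2.57), PDGFB (1.01 against -1.29) and GCC (-3.97 against 1.03). With normexp the values in empty defects were -1.38, -1.10, 0.70, 0.38 and -2.28. DKK1, MYH3 and PDGFB rested on 1 probe each, and the 4 GCC probes ran from -3.97 to -0.30. Of 501 genes 2-fold higher in empty defects and measured in grafted ones, 35 were 2-fold lower there, against 4.1% of all genes. Of 271 genes 2-fold lower in empty defects, 15 were 2-fold higher in grafted ones, against 3.11%.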

How the results depend on the processing

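There was no replicate to leave out, and no paired analysis was possible because each group holds 1 array and no result comes from a test. Genes at least 2-fold higher and lower numbered 589 and 327 (probes 1071 and 563). With normexp they were 107 and 136 (probes 204 and 253), and with no filter on dim probes 1328 and 614 (probes 2642 and 1076). At 1.5-fold they were 1785 and 799 (probes 3267 and 1585), at 3-fold 182 and 159 (probes 301 and 265). Counting only the 6275 genes with at least 2 probes, by their mean, gave 100 and 75. Normexp with an offset of 50 adds 50 to every corrected signal, which by construction draws differences of dim probes toward 0. How much of the normexp shift comes from the offset was not tested. The other counts differ by construction. Quantile normalization, median scaling, probe means and the filter on all 6 arrays kept both gene counts within 1.5 times. Of 35 list medians the sign turned for 6 with quantile normalization, 5 with median scaling, 5 with normexp, 2 with probe means and 1 with no filter. TGF-beta, endothelial and lymphocyte medians, all within 0.06 of 0, were among those for the first 3 settings. Among 61 named genes, CD68, PECAM1, COL1A1 and GAPDH turned in some setting, each within 0.1 of 0, and none past 2-fold turned. The 15 highest and 15 lowest of these were chosen for the same sign with quantile normalization and normexp. Their signs in those settings were thus fixed in advance.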

Other observations

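Genes chosen after their values were seen, because every one of at least 2 probes was past 2-fold, numbered 34 higher and 30 lower among named genes. No list was tested on them. Among the lower ones, ARG1, arginase, differed by -2.18, ALOX5AP, of leukotriene synthesis, by -1.99, the chemokine gene GRO-A by -1.77, CLEC4E by -1.09 and the acute-phase gene SAA3 by -1.54; CRYBA4, RLBP1 and ENPP2 were also among them. With normexp ARG1 and CLEC4E gave -1.57 and -0.95. In grafted defects ARG1, ALOX5AP and SAA3 gave -3.24, -2.95 and -1.87. MCP-1, here a macrophage cationic peptide and not the chemokine CCL2, was 1.39 higher, at 1.52 on day 5 and 2.91 on day 7, after 9.05 on day 3.

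Among the higher ones, MGP, the matrix inhibitor of calcification, differed by 1.70 over 9 probes, CAV1, of caveolae, by 1.48 over 7 probes, CSRP2 by 1.56, ACTG2, enteric actin, by 1.19, ANGPTL1 by 1.96, ABI3BP by 1.94 and MOXD1 by 1.71. IL18, KLRG1, ASIP and EMX2 were also among them. With normexp ABI3BP, ANGPTL1, MOXD1 and ACTG2 gave 1.18, 1.24, 0.92 and 0.89. In grafted defects MGP and CAV1 gave -0.73 and -0.61, CSRP2 0.34, and ABI3BP 2.62. Of all genes so chosen, 23 of 29 lower ones and 27 of 32 higher ones measured in grafted defects had the same sign there, against 62.9% of all genes.

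By symbol, 24 of 29 measured collagen chains were higher (median 0.32, 3 past 2-fold), against 59% of all genes higher and 3.01% at least 2-fold higher. For integrin subunits it was 17 of 26 (0.15), near the share of all genes. Proteasome subunits were higher in 9 of 41 (median -0.15) and histone genes in 1 of 8 (-0.17). Of 23 olfactory receptor genes, which most tissues hardly use, 2 were 2-fold higher and 1 lower (SD 0.71), against 3.01% and 1.67% of all genes. ECRG4, a secreted peptide precursor, and MAMDC2 were lower in empty defects (-1.20 and -1.63) and higher in grafted ones (2.21 and 1.77), each with all probes past 2-fold in empty defects, and PANX3, a channel of osteoblasts and chondrocytes, gave -1.07 (-0.66 with normexp) and 2.44 with 1 of 3 probes at 0.19.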
